A study of Mus musculus with 4 samples.

Results

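The genes described here are 9 histone variant and histone chaperone genes of the mouse oocyte, chosen by name: the oocyte linker histone gene *H1foo*, the H3.3 genes *H3f3a* and *H3f3b*, the H2A variant genes *H2afz* and *H2afy*, and the chaperone genes *Npm2*, *Nasp*, *Asf1a* and *Hira*. All 9 were matched by symbol among 55335 genes with values, and all 9 passed the filter on low counts. RNA of C57BL/6 mouse oocytes was sequenced after Smart-Seq2, a method that copies and amplifies whole mRNAs of a few cells. The 4 libraries were 2 labelled Control and 2 labelled Mutant, from a series on mice whose *Ezh2* exon 3 carries a point mutation where it is alternatively spliced, designed in a long and a short version. The Mutant label does not say which version, the sample descriptions carry the code MII, and the age of the mice and the number of oocytes per library are not stated in the labels.

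Chromatin is built of nucleosomes, each an octamer of histones H2A, H2B, H3 and H4, with a linker histone at the DNA that enters and leaves. Most histones are made during DNA replication, but variant histones can be exchanged at any time by chaperones, proteins that carry histones and place them on DNA. An oocyte does not replicate its DNA and stores variant histones and chaperones for the embryo, which uses them to repackage the sperm genome. EZH2, the enzyme encoded by the mutated gene, methylates lysine 27 of histone H3, a residue that H3.3 carries as well.

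The libraries held 25090032 to 26617816 counts. *Ezh2* itself was at 313 and 239 CPM (read counts relative to the scaled library size) in controls 1 and 2 against 176 and 223 CPM in mutants 1 and 2, a difference that did not pass the test (log2 fold change -0.47, adjusted p = 0.219, edgeR quasi-likelihood test), and these sums over the gene do not separate its splice forms. All 12 oocyte markers examined, among them *Zp3*, *Gdf9* and *Mos*, were detected in every library, with summed levels of 15178 and 13823 CPM in controls against 13626 and 14439 CPM in mutants. Marker genes of other cells differed between the mutant libraries. The 18 cumulus and granulosa markers, of the cells around the oocyte, summed to 115 and 88.6 CPM in controls, 428 CPM in mutant 1 and 62.0 CPM in mutant 2, and 16 of the 18 were highest in mutant 1. The 18 leukocyte markers summed to 6.36 and 7.50 CPM in controls, 12.9 CPM in mutant 1 and 182 CPM in mutant 2, and 12 of the 18 were highest in mutant 2, 2 in mutant 1 and 4 in a control. The labels do not tie the 2 libraries of a group to separate animals, so the spread behind each p-value is that between these libraries and may be technical.

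Mutant oocytes were compared with control oocytes for the transcripts of these genes. *H1foo* was among the most abundant transcripts of every library, and its level was higher in both mutants than in both controls. Both H3.3 genes had lower levels in both mutants. *H2afz* varied more between libraries than any other member, and only mutant 1 stood high. Transcripts of *Npm2*, *Nasp* and *Asf1a* were abundant and differed little between libraries in CPM, while *Hira* and *H2afy* were rare. None of these differences passed the test over all genes: 0 of 9 members were called (edgeR quasi-likelihood test with an adjusted p under 0.05), against 3.75% of the 15493 genes tested. With limma trend 0 members were called, against 4.76% of genes, and with the RSEM counts 0, against 3.89%. With DESeq2 1 member was called, *H3f3a*, against 11.5%. At an unadjusted p under 0.05, 1 of 9 members was lower in mutants and 0 were higher, against 23.0% of all tested genes in either direction.

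**Figure D1:**
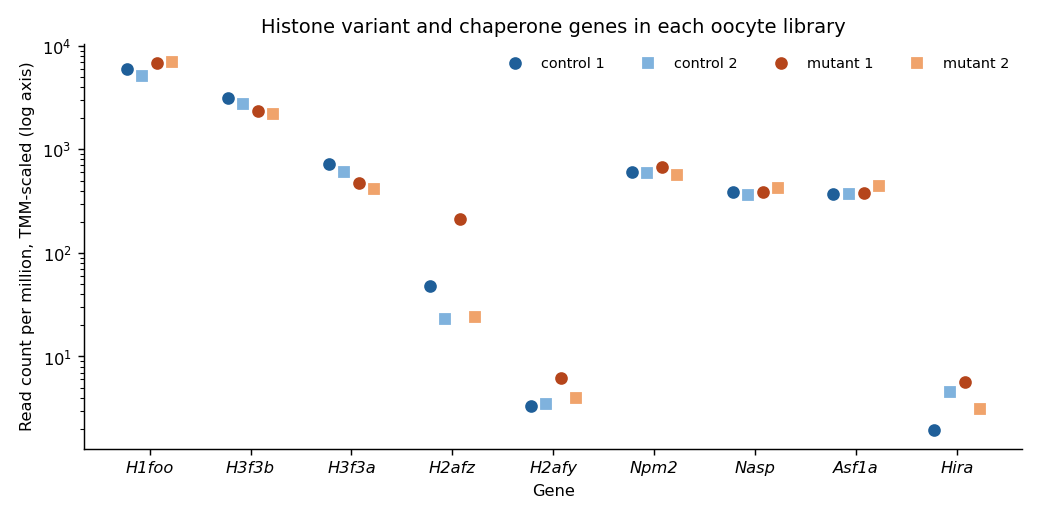
Level of each of the 9 genes in each library as CPM on a log axis, with controls in blue and mutants in orange. Points of *H1foo* lie between 5136 and 6933 CPM, and *H2afz* in mutant 1, at 212 CPM, lies apart from the other libraries at 22.8 to 48.4 CPM.

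**Figure D2:**
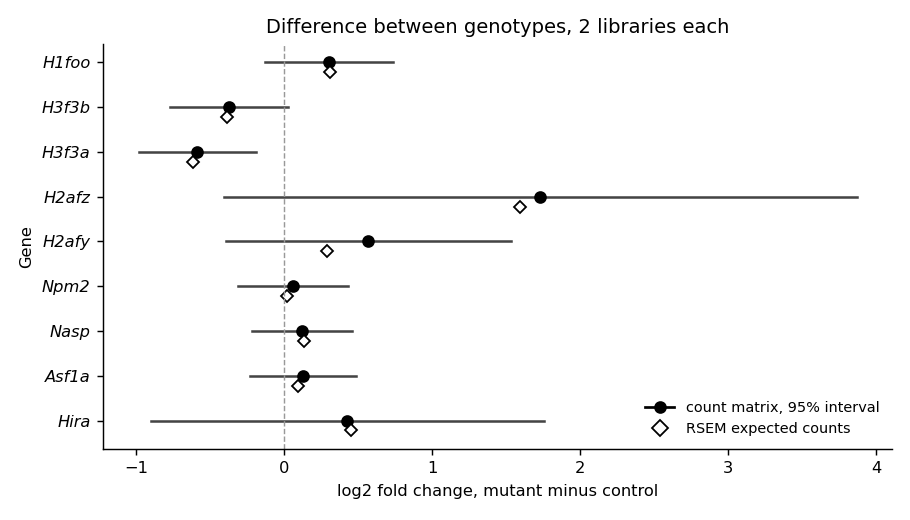
Difference between genotypes for each gene as log2 fold change, mutant minus control, from the count matrix with its 95% interval (filled circles) and from the RSEM expected counts (open diamonds). *H3f3a* has an interval below 0, from -0.98 to -0.19, before adjustment over all genes, and the interval of *H2afz* runs from -0.40 to 3.87.

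*H1foo* (chromosome 6, 115944938 to 115950236, mm10) encodes the linker histone of the oocyte, which takes the place of the somatic linker histones during oocyte growth and is lost in the early embryo. It was at 6007 and 5136 CPM in controls 1 and 2 against 6830 and 6933 CPM in mutants 1 and 2. Both mutants were therefore above both controls, and the mutants lay closer to each other than the controls did. The means were 5571 ± 616 CPM for controls against 6881 ± 72.4 CPM for mutants (SD, n = 2 per group), with a log2 fold change of 0.30 (SE 0.18, 95% interval -0.13 to 0.74, adjusted p = 0.365, edgeR quasi-likelihood test). Without control 2 it was 0.15. In TPM, the deposited level per transcript length, *H1foo* was at 9877 and 9189 in controls and at 13614 and 13728 in mutants, a ratio of the means of 1.43 where CPM gave a ratio of 1.24. The size of the difference thus depended on the scale, while its direction did not. *H1foo* held rank 9 and rank 10 of all genes by TPM in controls 1 and 2, and rank 4 and rank 5 in mutants 1 and 2. Its transcripts made up 0.988% and 0.919% of all TPM in the control libraries and 1.36% and 1.37% in the mutant libraries. Libraries did not overlap between the groups on any of these scales.

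Other linker histone genes were nearly silent beside it. Of the 9 listed, 2 had no count in any library, 4 were abundant enough to test, and 0 passed (0 also at an unadjusted p under 0.05). Over all tested genes these shares were 3.75% and 23.0%, so a count of 0 among 4 genes says little. *Hist1h1a*, which encodes a linker histone of replicating cells, led them at 30.4 and 44.0 TPM in controls against 41.3 and 39.2 TPM in mutants. *H1f0*, the replacement linker histone of differentiated cells, was at 4.67 and 6.87 TPM in controls against 9.70 and 6.18 TPM in mutants. All 9 together reached 35.3 to 52.3 TPM, so *H1foo* made up 99.6% and 99.4% of linker histone TPM in controls and 99.6% and 99.7% in mutants. This share overlapped between the groups (difference 0.0963 percentage points, two-sided exact permutation test p = 0.667, where 2 against 2 libraries cannot go below 0.333). Cluster histone mRNAs mostly lack a poly(A) tail, on which Smart-Seq2 priming depends.

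The genes of H3.3, the H3 variant that is placed on chromatin outside replication, lie on different chromosomes: *H3f3a* on chromosome 1 (180800832 to 180813943, mm10) and *H3f3b* on chromosome 11 (116021912 to 116027962). Their coding sequences translate to the same protein of 136 residues, yet they differ at many bases, so that most reads can be told apart between them. Of their 408 coding bases 76.7% were identical, and 83 of 136 codons differed. The first 120 coding bases of each (GENCODE release M21 transcripts, 5′ to 3′) are shown because this difference lets the share of each gene be measured, with capitals at the 24 bases where they differ:
H3f3a: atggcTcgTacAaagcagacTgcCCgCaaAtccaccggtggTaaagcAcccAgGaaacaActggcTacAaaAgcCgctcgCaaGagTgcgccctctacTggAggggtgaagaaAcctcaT
H3f3b: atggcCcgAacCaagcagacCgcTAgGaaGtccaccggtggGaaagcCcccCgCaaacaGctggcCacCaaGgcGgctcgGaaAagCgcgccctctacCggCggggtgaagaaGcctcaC

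*H3f3b* was the more abundant H3.3 gene, at 3110 and 2735 CPM in controls 1 and 2 against 2333 and 2176 CPM in mutants 1 and 2. Both mutants were below both controls. The log2 fold change was -0.37 (SE 0.17, 95% interval -0.77 to 0.02, adjusted p = 0.239, edgeR quasi-likelihood test). *H3f3a* was at 725 and 604 CPM in controls against 470 and 415 CPM in mutants, again with both mutants lower. Its log2 fold change was -0.59 (SE 0.16, 95% interval -0.98 to -0.19), and it came nearest of the members to the threshold without passing it (unadjusted p = 0.0101, adjusted p = 0.0950, edgeR quasi-likelihood test). With DESeq2 it passed (log2 fold change -0.61, adjusted p = 0.00963). With the RSEM expected counts the log2 fold changes were -0.61 for *H3f3a* and -0.39 for *H3f3b*, with adjusted p of 0.0834 and 0.224 (edgeR quasi-likelihood test). In TPM *H3f3b* was at 2375 and 2277 in controls against 2129 and 1926 in mutants, a ratio of the means of 0.87 where CPM gave 0.77. *H3f3a* was at 750 and 534 TPM in controls against 523 and 443 TPM in mutants, a ratio of 0.75 where CPM gave 0.67. The differences were thus smaller in TPM.

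Together the H3.3 genes gave 3835 and 3339 CPM in controls against 2803 and 2591 CPM in mutants, with means of 3587 ± 351 and 2697 ± 149 CPM (SD, n = 2 per group). *H3f3a* contributed 18.9% and 18.1% of these counts in controls and 16.8% and 16.0% in mutants. The share was lower in both mutants (mean difference -2.10 percentage points, mutant minus control), with the smallest p that 2 against 2 libraries allow (two-sided exact permutation test, p = 0.333). In TPM the shares of *H3f3a* overlapped, at 24.0% and 19.0% in controls against 19.7% and 18.7% in mutants. The mean transcript length that RSEM gave *H3f3a* was 1651 bases in control 1, 2012 bases in control 2 and 1788 and 1815 bases in the mutants, which moves its TPM but not its counts. With the level of *H1foo* higher and that of *H3f3b* lower in mutants, the ratio of their TPM was 4.16 and 4.04 in controls and 6.39 and 7.13 in mutants. This ratio does not depend on library scaling and was formed after its parts were seen, so it has no test.

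**Figure D3:**
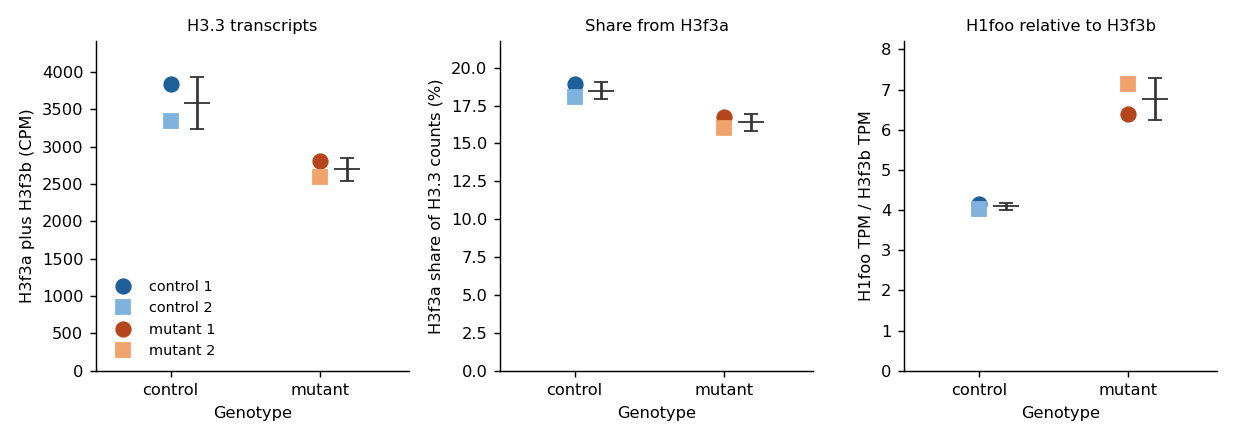
Summed H3.3 level in CPM, share of H3.3 counts that came from *H3f3a* in percent, and TPM of *H1foo* per TPM of *H3f3b*, by genotype, with a point per library and the mean with its SD (n = 2 per group). In each plot the control and mutant points do not overlap: the share runs from 18.1% to 18.9% in controls and from 16.0% to 16.8% in mutants.

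*H3f3a* has many processed copies in the genome. The search found 15 annotated pseudogenes that match at least 100 coding bases at 95% identity or more, and *H3f3c* matched all 408 bases at 99.02%. These copies held 290 and 218 counts in controls and 161 and 134 in mutants, which is 1.21% to 1.61% of the counts of *H3f3a*. Most belonged to *H3f3c*, with 190 and 145 counts in controls and 102 and 77 in mutants. RSEM gave *H3f3c* only 2.23 to 7.13 counts per library, so its level is uncertain. From the matrix its log2 fold change was -1.04 (unadjusted p = 0.0289, adjusted p = 0.163, edgeR quasi-likelihood test). *H3f3b* had 1 such copy with at most 31 counts in a library. Summed with their copies, the genes had log2 fold changes of -0.59 and -0.38. *Cenpa*, the H3 variant of centromeres, was at 59.0 and 70.0 TPM in controls against 92.5 and 69.4 TPM in mutants (log2 fold change 0.11, adjusted p = 0.780, edgeR quasi-likelihood test).

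*H2afz* (chromosome 3, 137864487 to 137866922, mm10) encodes H2A.Z, an H2A variant found around the start sites of genes. Its level was 48.4 and 22.8 CPM in controls 1 and 2, 212 CPM in mutant 1 and 24.3 CPM in mutant 2. Mutant 1 was high, while mutant 2 lay between the controls, so the groups overlapped. The highest library was 9.30 times the lowest, more than for any other member, where this ratio lay between 1.17 and 2.90. The log2 fold change of 1.73 had an SE of 0.89 and did not pass (adjusted p = 0.301, edgeR quasi-likelihood test). Without mutant 1 it was -0.58 (adjusted p = 0.317, edgeR quasi-likelihood test, which called 10.2% of genes on those 3 libraries) and without mutant 2 it was 2.57 (adjusted p = 0.0129, same test, 6.02% of genes called). The sign of the difference therefore rested on mutant 1.

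Cumulus and granulosa markers followed the same order at the top. Mutant 1 held 428 CPM of the 18 markers against 62.0 to 115 CPM in the other libraries, and all 18 were detected there, while 3 were at 0 in control 1, 8 in control 2 and 4 in mutant 2. *Gja1*, a connexin gene of cumulus cells, reached 99.3 CPM in mutant 1 against 10.9, 0 and 7.96 CPM in control 1, control 2 and mutant 2. *Kitl* and *Cyp19a1*, which are on this list, were instead highest in the controls. The summed leukocyte markers were highest in mutant 2, where *H2afz* was low, led by *Coro1a* at 64.3 CPM and *Ptprc* at 43.2 CPM, both at 0 in the controls. Among the exceptions on that list, *Cd4* and *Cd68* were highest in a control, and *Lyz2* and *Adgre1* in mutant 1. The part of such cells in the level of *H2afz* was not tested, and more cells of a type cannot be told apart from more RNA per cell in such libraries.

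**Figure D4:**
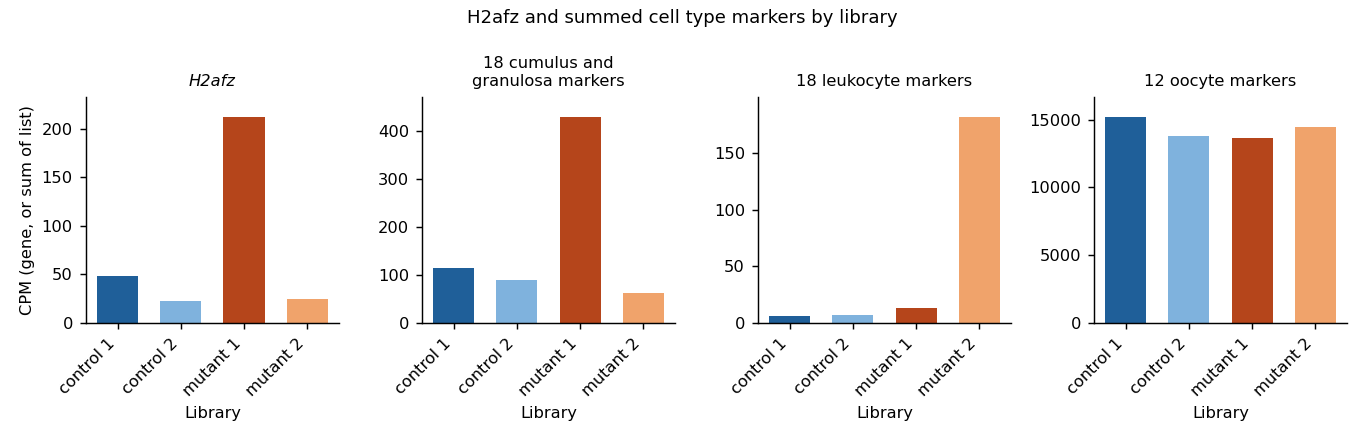
Level of *H2afz* and summed levels of the cumulus and granulosa, leukocyte and oocyte markers, in CPM, with a bar per library. Mutant 1 has the tallest bar for *H2afz* (212 CPM) and for the cumulus and granulosa markers (428 CPM), mutant 2 for the leukocyte markers (182 CPM), and the oocyte markers lie between 13626 and 15178 CPM.

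*H2afv* encodes a second H2A.Z protein. It was rarer, at 13.0 and 5.42 TPM in controls against 20.02 and 5.10 TPM in mutants, so *H2afz* made up 90.2% and 92.2% of H2A.Z TPM in controls and 96.5% and 93.3% in mutants. These shares are uncertain, because *H2afv* held only 36 to 114 counts per library and the level of *H2afz* is uncertain as well. The coding starts of the pair are shown because they differ at many bases, which lets reads of the 2 genes be told apart. Over 384 coding bases 79.2% were identical, and capitals mark the 28 differences in the first 120 bases:
H2afz: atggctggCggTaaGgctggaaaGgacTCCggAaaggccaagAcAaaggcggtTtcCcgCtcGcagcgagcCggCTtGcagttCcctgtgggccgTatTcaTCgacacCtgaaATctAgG
H2afv: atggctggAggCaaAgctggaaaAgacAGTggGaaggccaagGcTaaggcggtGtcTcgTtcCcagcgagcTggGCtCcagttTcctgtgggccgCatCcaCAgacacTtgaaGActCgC

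The whole coding sequence of *H2afz* also occurs at 100% identity in annotated transcripts of *Tmcc1*, a gene of another family, which held 832 and 833 counts in controls and 1229 and 951 in mutants. The matrix gave *H2afz* 0.732 to 0.852 of its RSEM count, where whole libraries had 1.06 to 1.08, so its level is uncertain, although its order over the libraries was the same in both. With the RSEM counts the log2 fold change was 1.59 (adjusted p = 0.299, edgeR quasi-likelihood test). *H2afx*, the H2A variant that is phosphorylated at DNA breaks, was at 6.21 and 11.4 TPM in controls against 13.0 and 16.5 TPM in mutants (log2 fold change 0.55, adjusted p = 0.428). *Hist1h2aa*, a testis and oocyte H2A gene, was at 25.4 and 27.2 TPM in controls against 33.7 and 32.0 TPM in mutants (log2 fold change 0.09, adjusted p = 0.854, edgeR quasi-likelihood test for both). The fold change of *Hist1h2aa* rests on 401 to 552 matrix counts per library, but its TPM on only 36 to 44 RSEM counts. The level of *Hist1h2aa* is therefore uncertain.

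*H2afy* (chromosome 13, 56073619 to 56136361, mm10) encodes macroH2A1, a large H2A variant with a macro domain that marks the inactive X chromosome. It was rare, with 82 and 88 counts in controls and 173 and 105 counts in mutants, or 3.302 and 3.49 CPM against 6.14 and 3.94 CPM. Both mutants were above both controls, with mutant 1 the highest (log2 fold change 0.57, SE 0.40, adjusted p = 0.451, edgeR quasi-likelihood test). The log2 fold change was 0.20 without mutant 1 and 0.29 with the RSEM counts. In TPM the groups overlapped, at 7.97 and 6.12 in controls and 9.61 and 6.20 in mutants. An antisense gene, *Gm47071*, overlaps it with 139 and 138 counts in controls and 145 and 119 in mutants, more than *H2afy* in every library but mutant 1, and use of strand in the counting is not stated, so the level of *H2afy* is uncertain.

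Among the chaperone genes of the members, *Npm2* (chromosome 14, 70647302 to 70659244, mm10) was the most abundant. It encodes nucleoplasmin 2, an oocyte protein that binds H2A and H2B, organizes the nucleolus of the oocyte and is needed by the embryo after fertilization. Its level was 602 and 596 CPM in controls against 679 and 570 CPM in mutants. The controls lay between the mutants, and the log2 fold change was 0.06 (SE 0.15, 95% interval -0.31 to 0.43, adjusted p = 0.860, edgeR quasi-likelihood test). Without mutant 1 it was -0.089. Its relative *Npm1*, the nucleophosmin of all cells, was at 549 ± 133 CPM in controls against 382 ± 31.7 CPM in mutants (SD, n = 2 per group; log2 fold change -0.52, adjusted p = 0.184, edgeR quasi-likelihood test). *Npm2* made up 75.4% and 81.5% of the TPM of the 3 nucleoplasmin genes in controls and 84.3% and 83.3% in mutants, with the lowest share in control 1. *Xpo7* overlaps *Npm2* on the same strand over 4999 bases and held 451 to 561 counts per library.

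*Asf1a* (chromosome 10, 53596757 to 53609225, mm10) encodes a chaperone that carries H3 and H4 and passes H3.3 on to the HIRA complex. It was at 374 and 371 CPM in controls against 376 and 440 CPM in mutants. Mutant 1 was level with the controls and mutant 2 higher (log2 fold change 0.13, SE 0.15, 95% interval -0.23 to 0.49, adjusted p = 0.660, edgeR quasi-likelihood test). Without mutant 2 it was 0.0015. In TPM it was at 1150 and 1224 in controls and 1444 and 1650 in mutants. *Mcm9* overlaps it on the opposite strand over 12469 bases and held 3463 to 4109 counts, and the matrix gave *Asf1a* 0.782 to 0.822 of its RSEM count. Its paralog *Asf1b*, the form of dividing cells, was at 167 ± 0.110 CPM in controls against 134 ± 19.6 CPM in mutants (SD, n = 2 per group; log2 fold change -0.32, adjusted p = 0.284, edgeR quasi-likelihood test). *Asf1a* thus supplied 88.5% and 88.4% of ASF1 TPM in controls and 91.7% and 91.3% in mutants, a difference of 3.06 percentage points between the means.

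*Nasp* (chromosome 4, 116601052 to 116627941, mm10) encodes a chaperone that protects soluble H3 and H4. It was the steadiest member in CPM, at 388 and 362 CPM in controls against 392 and 422 CPM in mutants. Both mutants were above both controls by little (log2 fold change 0.12, SE 0.14, 95% interval -0.22 to 0.46, adjusted p = 0.670, edgeR quasi-likelihood test). Without control 2 it was 0.021. Its CPM in the highest library was 1.17 times that in the lowest. In TPM it was at 248 and 264 in controls against 310 and 316 in mutants, a ratio of the means of 1.22 where CPM gave 1.09. The search found no annotated copy that matched at least 100 of its coding bases at 95% identity or more.

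*Hira* (chromosome 16, 18877037 to 18970309, mm10), the scaffold of the complex that deposits H3.3, was the rarest member by mean CPM and mean TPM. In control 2 it was above *H2afy* in CPM, at 4.52 against 3.49. It had 48 and 114 counts in controls and 158 and 82 counts in mutants, or 1.93 and 4.52 CPM against 5.61 and 3.08 CPM. Each group held a high and a low library, and the log2 fold change of 0.43 had an SE of 0.55 (adjusted p = 0.700, edgeR quasi-likelihood test). Its sign changed without control 1 (-0.068) and without mutant 1 (-0.080). *Gm28539*, annotated on the same strand across most of *Hira*, shares 2416 bases of its coding sequence and held 18 and 49 counts in controls and 64 and 46 in mutants. Even summed, the pair had 66 and 163 counts in controls and 222 and 128 in mutants. The other genes of the HIRA complex were more abundant per length. *Ubn1* was at 24.6 and 19.8 TPM in controls against 30.4 and 31.1 TPM in mutants, against 1.81 and 4.02 TPM and 6.56 and 3.99 TPM for *Hira*. *Ubn2* was at 19.1 to 24.7 TPM and *Cabin1* at 8.64 to 17.1 TPM over the 4 libraries. Of the separate H3.3 pathway of DAXX and ATRX, *Daxx* was at 29.8 to 40.4 TPM and *Atrx* at 675 to 937 TPM.

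By mean TPM over the 4 libraries the members ordered as *H1foo*, *Npm2*, *H3f3b*, *Asf1a*, *H3f3a*, *Nasp*, *H2afz*, *H2afy* and *Hira*. *H1foo* was 4.26 to 6.44 times as high as *Npm2* in each library. *H3f3b* was above *Npm2* in both controls, at 2375 and 2277 against 1954 and 2157 TPM. In both mutants it was below, at 2129 and 1926 against 2595 and 2132 TPM. The ranges of these 2 genes overlapped over the 4 libraries, and the change of order was not tested. *H3f3b*, *Asf1a*, *H3f3a* and *Nasp* kept their order in all 4 libraries with ranges that did not overlap. *Nasp* and *H2afz* changed places in mutant 1, where *H2afz* reached 548 TPM. *H2afy* was above *Hira* in every library, but their ranges overlapped. In their profiles over the 4 libraries, *Nasp* and *Asf1a* were the closest pair (distance 0.11 between centred log2 CPM), and *H3f3a* and *H3f3b* were each other's nearest member (0.23). *Nasp* and *Asf1a* varied little (SD of log2 CPM 0.091 and 0.12), and flat profiles lie close by this distance whatever their shape.

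**Figure D5:**
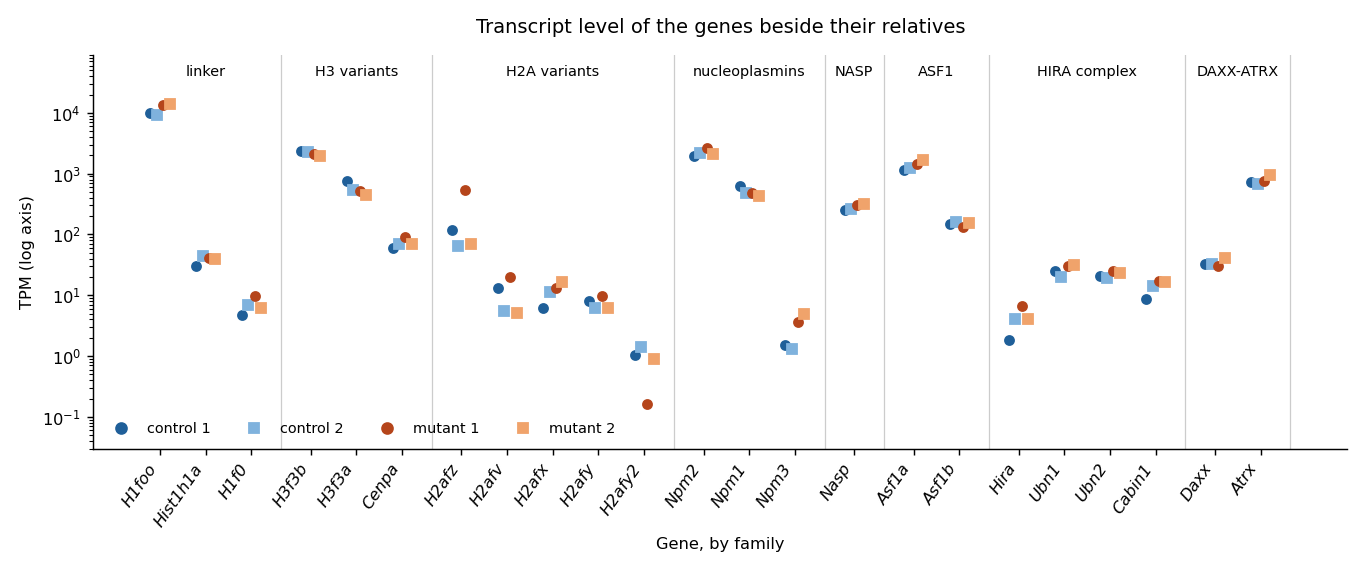
TPM of the members and of their relatives on a log axis, by family, with a point per library. *H1foo* lies at 9189 TPM or above in every library while *Hist1h1a* and *H1f0* stay at or below 44.0 TPM, and *Hira* lies at 1.81 to 6.56 TPM, below *Ubn1*, *Ubn2* and *Cabin1*.

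Counted by separation of the groups, 6 of the 9 members had control and mutant libraries that did not overlap in CPM, against 54.6% of all tested genes. They were *H1foo*, *H3f3a*, *H3f3b*, *H2afy*, *Nasp* and *Asf1a*. Of these members 4 were higher in mutants, where 28.8% of all tested genes were higher without overlap, and 2 were lower, where 25.7% were lower. The gap of *Asf1a* was small, with mutant 1 at 376 CPM and control 1 at 374 CPM, and in TPM the groups of *H2afy* overlapped. The median log2 fold change of the members was 0.13, with 7 positive and 2 negative, and that of all tested genes was 0.05.

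Beyond the members, a list of 70 other histone variant, chaperone and exchange genes was examined, all matched by symbol and 58 abundant enough to test. None passed the threshold (edgeR quasi-likelihood test), against 3.75% of all tested genes. With limma trend 0 of 58 passed, against 4.76%, and with DESeq2 4 genes of the list, against 11.5%. At an unadjusted p under 0.05 there were 2 higher and 5 lower in mutants of 58, against 23.0% of all tested genes in either direction. The 5 include *H3f3c*, the copy of *H3f3a* whose level is uncertain. The list had a median of 0.12, with 37 positive and 21 negative. Of the H3 and H4 chaperones of replication, *Rbbp7*, a histone-binding subunit of several complexes including PRC2, was the most abundant at 5590 ± 656 CPM in controls against 4871 ± 1095 CPM in mutants (log2 fold change -0.20, adjusted p = 0.647). *Hat1*, which acetylates new H4, was at 267 ± 47.7 and 182 ± 6.66 CPM (SD, n = 2 per group; log2 fold change -0.55, adjusted p = 0.117). *Supt16* and *Ssrp1*, the subunits of the FACT chaperone, had log2 fold changes of 0.04 and 0.18 (adjusted p = 0.902 and 0.584). *Vps72* and *Ruvbl2*, of the complexes that exchange H2A.Z, had 0.15 and -0.21 (adjusted p = 0.683 and 0.614). *Nap1l1*, an H2A and H2B chaperone, had 0.03, and *Dek*, an H3.3 chaperone, had -0.18 (adjusted p = 0.943 and 0.530). All these adjusted p come from the edgeR quasi-likelihood test.

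The smallest adjusted p on the list belonged to *Dmap1*, *Mis18a* and *Hjurp*, which were picked out after their values were seen. *Hjurp* and *Mis18a* serve the loading of CENP-A at centromeres. *Hjurp* was at 169 ± 45.6 CPM in controls against 97.3 ± 13.0 CPM in mutants, and *Mis18a* at 58.4 ± 6.72 and 32.3 ± 7.61 CPM (SD, n = 2 per group; log2 fold changes -0.80 and -0.85, adjusted p = 0.0924 and 0.0828, edgeR quasi-likelihood test). With the RSEM counts *Mis18a* passed, with a log2 fold change of -2.31 (adjusted p = 0.00895), and *Hjurp* did not (-0.69, adjusted p = 0.145, edgeR quasi-likelihood test). The matrix gave *Mis18a* 1.08 and 1.09 times its RSEM count in controls but 3.19 and 2.89 times in mutants. For *Hjurp* it gave 1.66 to 1.86 times, where whole libraries had 1.06 to 1.08. The levels of both genes, and the size of the difference in *Mis18a*, are therefore uncertain. *Dmap1*, a subunit shared by chromatin-modifying complexes, was at 1.70 ± 0.124 CPM in controls against 6.26 ± 2.64 CPM in mutants (log2 fold change 1.88, adjusted p = 0.0736, edgeR quasi-likelihood test).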

How the data were processed

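RNA of 4 mouse oocyte libraries was read from the deposited files, and groups and replicate numbers came from the titles. The main values were the raw counts per gene that the authors deposited as 1 matrix. Per the file headers, the authors' tables per library hold RSEM expected counts, TPM and FPKM with gene lengths in bases. The submitters' processing notes list cutadapt 1.16, STAR, RSEM and mm10; their settings, the counter of the matrix and its use of strand are not stated in these sources.

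Counts of the matrix were fitted with edgeR 4.0.16 in R 4.3.3 (TMM, filterByExpr, glmQLFit, glmQLFTest, genotype only, 2 residual degrees of freedom) over all 15493 tested genes with Benjamini-Hochberg adjustment at 0.05. The SE is the log2 fold change divided by the square root of F. Totals of 25090032 to 26617816 counts limit precision for rare genes. On simulated counts for this comparison (14854 genes run, 50 changed genes per size) the test recovered 20% of 2-fold and 60% of 4-fold changes, so most 2-fold changes were missed there. The changed genes were drawn from rare and abundant genes alike, so these shares do not carry over to each member. The 95% intervals of *Npm2*, *Nasp* and *Asf1a*, from -0.31 to 0.49 at their outer ends, did not reach a 2-fold change. Shares were tested by exact permutation in Python 3.11.15. TPM was used for levels between genes. Coding sequences came from GENCODE M21, and copies were searched with BLAST 2.17.0. Alternatives were DESeq2 1.42.0, limma 3.58.1, other scalings, filters and thresholds, a replicate block, each library left out, rounded RSEM expected counts, removal of mitochondrial and ribosomal protein genes, and, added after seeing the data, sums with copies. The members, lists and tests were chosen with earlier results of these data known. Named from the list were genes past the threshold and the 2 highest by mean TPM in each role, and others where stated.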

Additional observations from a re-analysis of the deposited data

How the results depend on the processing

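The count of members that passed was 0 in all settings but 3: it was 1 with DESeq2 and 1 at an adjusted p under 0.1 (*H3f3a* in both), and 0 to 1 with a library left out (*H2afz* without mutant 2). For the list of 70 other genes the count of 0 became 4 with DESeq2 (*Hjurp*, *Mis18a*, *Hat1*, *Dmap1*), 1 with the RSEM counts, 2 with no filter on low counts, 2 with the replicate block, 3 at an adjusted p under 0.1, and 0 to 3 with a library left out. Over all genes 581 passed, against 1935 with DESeq2, 1322 with no filter, 1213 with the replicate block, 113 at 0.01, 1721 at 0.1, and 22 to 1688 with a library left out. The genes tested numbered 15493 in the main fit, with the replicate block and at the other thresholds, and 26406 with no filter. With the RSEM counts 513 of 13182 passed (3.89%), and with DESeq2 11.5% passed. Of the list 58 genes were tested in these settings, or 65 with no filter and with DESeq2. A few calls among 9 members or 58 genes say little beside these shares. The replicate numbers share no stated animal or batch, and differences between replicates 1 and 2 correlated at 0.17 between the groups over 15493 genes, so the block rests on the number alone.

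*H1foo*, *H3f3a*, *H3f3b*, *H2afy*, *Nasp* and *Asf1a* kept the sign of their log2 fold change under every alternative in which they were tested. *H3f3a* ranged from -0.76 to -0.46, *H3f3b* from -0.51 to -0.28, *H1foo* from 0.15 to 0.41, *H2afy* from 0.20 to 0.84, *Nasp* from 0.021 to 0.21 and *Asf1a* from 0.0015 to 0.22. The sign reversed for *H2afz* (-0.58) and *Npm2* (-0.089) without mutant 1, and for *Hira* without control 1 (-0.068) and without mutant 1 (-0.080). With a library left out the values ran from -0.58 to 2.57 for *H2afz*, from -0.089 to 0.17 for *Npm2* and from -0.080 to 1.12 for *Hira*; the cause was not tested. The share of *H1foo* in linker histone TPM differed by -0.00691 to 0.199 percentage points with a library left out, reversed at the low end (without control 2). The median of all genes moved from 0.05 to 0.16 with no filter and to 0.15 with DESeq2, fits that tested more genes, while *H1foo* was at 0.30 and 0.29 there, *Asf1a* at 0.12 and 0.11, and *Nasp* at 0.11 and 0.10. *Hira* and *H2afy*, at 48 to 173 counts, lay under the stricter filter of 10 CPM and were not tested there.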
